A study of Mus musculus with 2 samples.

Results

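*Retnla* encodes RELM-alpha (also called FIZZ1), a small secreted, cysteine-rich protein of the resistin family. Macrophages make it when IL-4 or IL-13 signals through the kinases of their receptors to the transcription factor STAT6, and it is a standard marker of alternative activation; in peripheral nerve it has been used to mark macrophages of the epineurium, the outer sheath. The gene was chosen from 54838 annotated genes because of its level in these data, so its levels are a description and carry no test. It was read in 5098 cells, which are the barcodes with at least 500 unique molecular identifiers (UMIs, each standing for 1 captured RNA molecule) and 200 genes. The YFP- library gave 1045 of these cells and the YFP+ library 4053.

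The macrophages came from sciatic nerves of 19 male Flt3-Cre LSL-YFP fl/fl mice aged 10 to 12 weeks, in which Cre driven by *Flt3* switches on YFP for good in a cell and its descendants. The study reads YFP+ macrophages as derived from haematopoietic stem cells and YFP- macrophages as of embryonic origin. CD64+ CD45int cells were pooled over the mice, sorted by YFP and run as 1 library per group on a 10x Chromium chip. Origin and library cannot be told apart, and no p-value is given.

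The cells held 2418044 UMIs in the YFP- library (median 2233 per cell) and 6747554 in the YFP+ library (median 1484), so 3 UMIs, taken as the limit of detection, correspond to 1.24 and 0.445 CPM (UMIs of a gene per 1000000 UMIs). Macrophage transcripts were present: *C1qa*, a subunit of complement C1q, had a UMI in 98.8% and 97.2% of cells and *Csf1r*, the receptor for macrophage colony-stimulating factor, in 84.7% and 69.4%. The genes of the sort markers were seen in fewer cells, *Fcgr1* (CD64) in 19.7% and 15.5% and *Ptprc* (CD45) in 36.3% and 30.7%. Markers of T cells, mast cells and eosinophils were at or near 0 UMIs. 7 barcodes were cells in both libraries and carried 67 of the 1495 *Retnla* UMIs of the YFP- library and 1 of the 7035 of the YFP+ library; without them the levels moved by less than their counting error.

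*Retnla* (ENSMUSG00000061100) lies on the plus strand of mouse chromosome 16 at 48842551 to 48844461 (GRCm38, GENCODE M21) in 4 exons. The coding part starts in exon 1 at 48842573, and the last exon holds the 3' UTR from 48844299 to 48844461. Its relatives *Retnlb* and *Retnlg* lie 23.7 kb upstream of its start and 28.2 kb downstream of its end on the same strand. The 192 bases before the first exon (GRCm38.p6, chr16:48842359-48842550, plus strand, from the RefSeq promoter table) are shown because they hold the spaced palindrome TTCNNNNGAA, the form of site that STAT6 prefers, here in capitals.

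Retnla upstream: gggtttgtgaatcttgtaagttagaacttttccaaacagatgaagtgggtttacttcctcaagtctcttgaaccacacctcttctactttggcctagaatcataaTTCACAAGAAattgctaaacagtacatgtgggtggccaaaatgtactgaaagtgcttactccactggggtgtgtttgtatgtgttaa

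The match starts 87 bases before the first exon. On either strand of a window of the same length, 4.60% of 27025 promoters held these letters, so the match is a description and not a bound site.

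Summed over cells, *Retnla* stood at 618 CPM for YFP- (95% Poisson interval 587 to 650) and at 1043 CPM for YFP+ cells (1018 to 1067). The ratio of YFP+ over YFP- cells was 1.68 (1.59 to 1.77; log2 ratio 0.74 with a pseudocount of 10 CPM), and among 2447 genes with at least 50 CPM in both libraries it ranked 7 from the highest, beside a median log2 ratio of 0.02. These intervals cover counting error only, since each group is 1 library. None of the other members of the family was measurable. *Retn*, which encodes resistin itself, had 0 and 1 UMI in the cells, and *Retnlb* and *Retnlg* had 0 in both libraries. Whether any UMI of a near relative was counted as *Retnla* was not tested.

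Most cells had no *Retnla* and a few had a great deal. To compare cells of unequal depth, 500 UMIs were drawn from each cell, which lost no cell. At that depth 8.90% of YFP- cells (93 cells; 95% Clopper-Pearson interval 7.24 to 10.8) and 11.7% of YFP+ cells (475 cells; 10.7 to 12.8) had a *Retnla* UMI. Without thinning the shares were 19.7% and 19.6%.

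Cells with 3 or more of 500 UMIs, called *Retnla*-high, made up 3.64% of YFP- cells (38 cells; 2.59 to 4.96) and 5.30% of YFP+ cells (215 cells; 4.63 to 6.04). These intervals overlap. The *Retnla*-high cells nevertheless carried 78.0% of all *Retnla* UMIs of the YFP- and 82.2% of those of the YFP+ library. Their raw *Retnla* count ran from 3 through a median of 27.5 to 106 in YFP- cells, and from 3 through 18 to 149 in YFP+ cells, and the transcript took up to 4.49% and 10.3% of all UMIs in 1 cell.

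Per UMI, *Retnla*-high cells held 17966 CPM if YFP- and 15666 CPM if YFP+, a difference of -0.20 (-0.29 to -0.11) on the log2 scale. The class is cut by *Retnla* itself, so this difference describes the classes and is no test of what set the levels over all cells apart. Near the threshold, 12 YFP- and 53 YFP+ cells had 2 of 500 UMIs, just outside the class, and 9 and 71 cells had 3 to 4, just inside it.

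**Figure D1:**
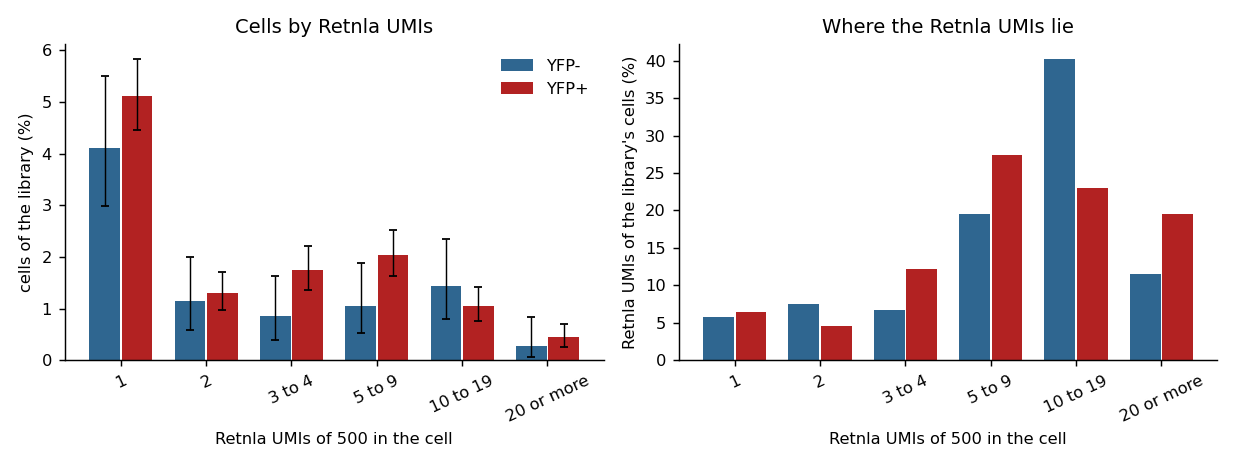
Left, the share of cells of each library (%) by the number of Retnla UMIs of 500, with 95% Clopper-Pearson intervals; the 952 YFP- and 3578 YFP+ cells with 0 are not drawn. Right, the share of each library's Retnla UMIs (%) in the same classes. Cells with 10 or more of 500 are 1.72% and 1.51% of cells and hold 51.8% and 42.5% of the UMIs.

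The spread was far wider than even counting would give. With the observed mean of 0.407 UMIs of 500 in YFP- cells, a Poisson distribution would leave 66.6% of cells at 0, and 91.1% were at 0. In YFP+ cells the mean was 0.543, for which 58.1% would be at 0, and 88.3% were. The variance over the mean was 10.6 in YFP- cells and 12.5 in YFP+ cells, beside medians of 1.04 and 1.02 over 2672 and 2602 genes with at least 50 CPM. By this measure *Retnla* ranked 3 from the highest in the YFP- and 2 in the YFP+ library. The 5% of cells with most *Retnla* held 88.0% and 83.6% of its UMIs.

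*Retnla* was also abundant outside cells. Barcodes with 10 to 100 UMIs, which hold free RNA in place of a cell, gave 1504 CPM for YFP- (1425 to 1586; 1368 UMIs in 56346 barcodes) and 1725 CPM for YFP+ (1668 to 1783; 3509 UMIs in 85373 barcodes). This background was 2.41-fold (2.24 to 2.59) and 1.65-fold (1.58 to 1.72) the level over cells. By this ratio *Retnla* ranked 6 of 2672 genes in the YFP- library and 35 of 2602 in the YFP+ library. The backgrounds of the libraries differed less than their cells, by 0.20 (0.11 to 0.29) on the log2 scale, YFP+ being higher.

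A cell made wholly of such RNA would hold on average 0.752 (YFP-) or 0.862 (YFP+) *Retnla* UMIs of 500. By counting alone such cells would have 10 or more of 500 in 8.06e-07% and 2.87e-06% of cases. Of the cells observed, 1.72% and 1.51% had them. This comparison was not made for 3 or more of 500, the bound of the *Retnla*-high class. Cells just inside that class are thus not shown by it to exceed free RNA. Free RNA at 12.4% (YFP-) and 14.5% (YFP+) of each cell would by counting give the observed share of cells at 0. With these amounts 3 or more of 500 would come in 0.0126% and 0.0294% of cases. The amounts were set from the *Retnla* zeros of these same cells and taken as equal in every cell. No conclusion about the *Retnla*-high class is therefore drawn from these shares. The share of free RNA in the cells was not measured. The 4.11% of YFP- and 5.11% of YFP+ cells with exactly 1 UMI of 500 are not read as expression, since 1 such UMI cannot be told apart from free RNA. For comparison, 13 YFP+ cells had 3 or more of 500 UMIs from mural genes (*Acta2*, *Tagln* and others of vascular smooth muscle). Their median depth was 2024 UMIs, and 1 of them, or 7.69% (0.195 to 36.0), had a *Retnla* UMI. The YFP- library held 1 such cell, with no *Retnla* UMI. This interval holds the 11.7% of all YFP+ cells, and whether these cells lack the gene was not tested.

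**Figure D2:**
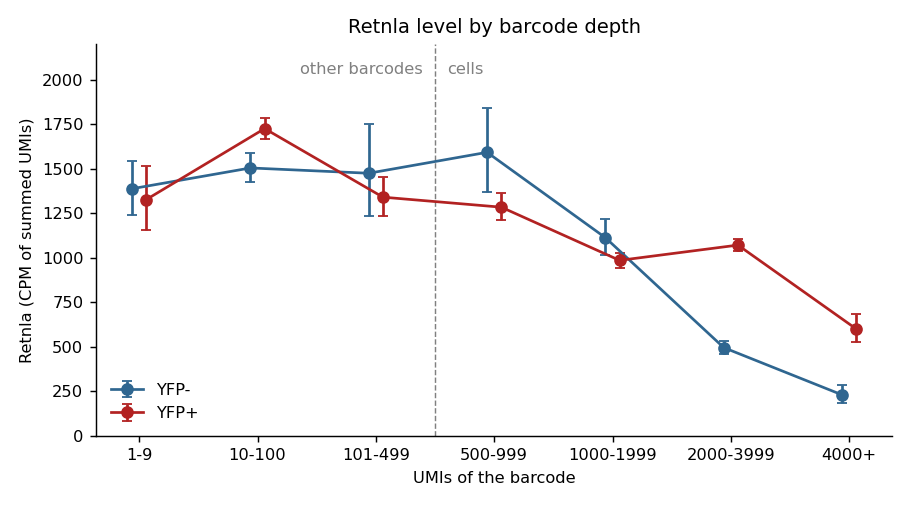
Retnla level (CPM of summed UMIs, with 95% Poisson intervals) by the number of UMIs of the barcode, in the YFP- (blue) and YFP+ (red) library; barcodes left of the dashed line are not cells. In YFP- barcodes the level falls from 1592 CPM in the shallowest cells to 230 CPM at 4000 UMIs or more, and in YFP+ barcodes from 1284 to 600 CPM.

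The difference between the libraries depended on the depth of the cells. Under 1000 UMIs per cell *Retnla* was at 1592 CPM (YFP-) and 1284 CPM (YFP+), and from 1000 to under 2000 UMIs at 1112 and 985 CPM. From 2000 to under 4000 UMIs it was at 495 and 1071 CPM, and from 4000 UMIs at 230 and 600 CPM. For all cells under 2000 UMIs the log2 ratio, YFP+ to YFP-, was -0.18 (-0.30 to -0.06), and for cells of 2000 or more it was 1.17 (1.07 to 1.28), so that the direction of the ratio over all cells held in the deeper cells only. The share of *Retnla*-high cells moved alongside. In the YFP- library it was 8.0% (12 of 150 cells), 4.51%, 2.24% and 1.39% (1 of 72 cells) in these 4 classes of depth, while in the YFP+ library it was 5.15%, 4.91%, 6.06% and 3.80%. The part of depth in the difference between the libraries was not tested.

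*Retnla*-high cells were next compared with the cells at 0 of 500 within each library, with *Retnla* itself taken out of the totals. The cells at 0 still held 57.8 (YFP-) and 80.2 CPM (YFP+) of *Retnla* among the UMIs not drawn. The YFP+ comparison rests on 363240 UMIs of the 215 high cells and the YFP- comparison on 63736 UMIs of the 38 high cells, where 3 UMIs already make 47.1 CPM, so YFP- values are much less certain. Median depth was close in the YFP+ classes (1586 and 1482.5 UMIs) but not in the YFP- classes (1448 and 2270). Of 2601 genes with at least 50 CPM in the YFP+ library, 17 (0.654%) were at least 2-fold higher and 35 (1.35%) at least 2-fold lower in *Retnla*-high cells. Of 2671 in the YFP- library, 97 (3.63%) were higher and 284 (10.6%) lower. The median log2 ratio was -0.05 and -0.08.

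The genes most like *Retnla* were ranked across YFP+ cells. By Pearson's correlation on log2(1 + counts per 10000), over 2446 genes with at least 50 CPM in both libraries, the first was *S100a6* (r = 0.19), a calcium-binding protein, then *Fgfr1* (0.18), a fibroblast growth factor receptor, *Ccr2* (0.15), the receptor that brings monocytes out of the blood, and *Crip1* (0.14). These values are low, as in all sparse counts, and the cells share 1 library. The order depends on the minimum CPM. Under it, the listed genes *Cd209g* (0.241) and *Cd209f* (0.238) had higher values than *S100a6* in YFP+ cells. In YFP- cells *Fcna*, also under it, was at 0.298, above the 0.246 of *Fxyd2*, the first of the genes compared there. The next were *Emp1*, *Pltp*, *Cfp* (properdin of the complement system), *Lgals3* (galectin-3), *Ahnak*, *Ly6e*, *Capg*, *Hspa1b*, *Psap*, *Hsp90aa1*, *H2-D1*, *Ccl9*, *Clec10a*, *Fxyd2*, *Hspa1a* and *Ccl6*, down to r = 0.09. Of these 20, 15 had a promoter in the RefSeq table, and 1 of them, *Lgals3*, held the motif shown above.

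In *Retnla*-high YFP+ cells *S100a6* was at a log2 ratio of 1.48 (1.31 to 1.65), *Fgfr1* at 1.96 (1.60 to 2.30) and *Ccr2* at 1.41 (1.21 to 1.60). There 12 of these 20 genes were at least 2-fold higher, beside 0.654% of the 2601 genes with at least 50 CPM. The 20 were chosen on these same YFP+ cells, so their higher levels there follow from the choice and are no independent evidence. The YFP- library took part in choosing the 20 only through the minimum CPM asked of both libraries. It had 18 of them above 0 and 10 at least 2-fold higher in its *Retnla*-high cells, beside 45.6% and 3.31% of the 2446 genes. There *S100a6* was at 2.51 (2.06 to 2.93), *Fgfr1* at 2.19 (1.35 to 2.93) and *Ccr2* at 1.34 (0.62 to 1.99). The exceptions were the chaperones *Hspa1a* (-0.77) and *Hsp90aa1* (-0.40). Chosen separately, the 20 most like genes of each library shared 9, or 45% of each list: *Ccl6*, *Ccl9*, *Cfp*, *Clec10a*, *Crip1*, *Fgfr1*, *Fxyd2*, *Ly6e* and *S100a6*. *Fgfr1* met the minimum CPM over all cells, at 51.3 CPM (YFP-) and 57.1 CPM (YFP+). In *Retnla*-zero cells it was below the minimum, at 43.9 and 46.3 CPM. Its place among the genes compared thus rested on the cells with *Retnla*.

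At the other end stood *Apoe*, the lipid carrier that is among the most abundant transcripts of these cells, with the lowest correlation in the YFP+ library (r = -0.22) and -0.25 in the YFP- library. Its level was 22336 CPM in YFP+ cells at 0 *Retnla* UMIs, 18628 CPM at 1 to 2, 10250 CPM at 3 to 9 and 7830 CPM at 10 or more. In YFP- cells it was 28144, 20749, 14825 and 14144 CPM. The level of *Apoe* thus stepped down with each class of *Retnla* in both libraries, although the last YFP- step lay within counting error. The rest of the 10 least like genes were *Prune2*, *Wwp1*, *H3f3b*, *Pf4*, *Slc15a2* (a peptide transporter, log2 ratio -1.55 and, in YFP- cells, -1.43), *Rsrp1*, *Pla2g2d*, *Ccl12* and *Cd63*. 9 of the 10 had a negative correlation in the YFP- library too, where 64.2% of the 2446 genes did, the exception being *Pf4* with r = 0.05.

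**Figure D3:**
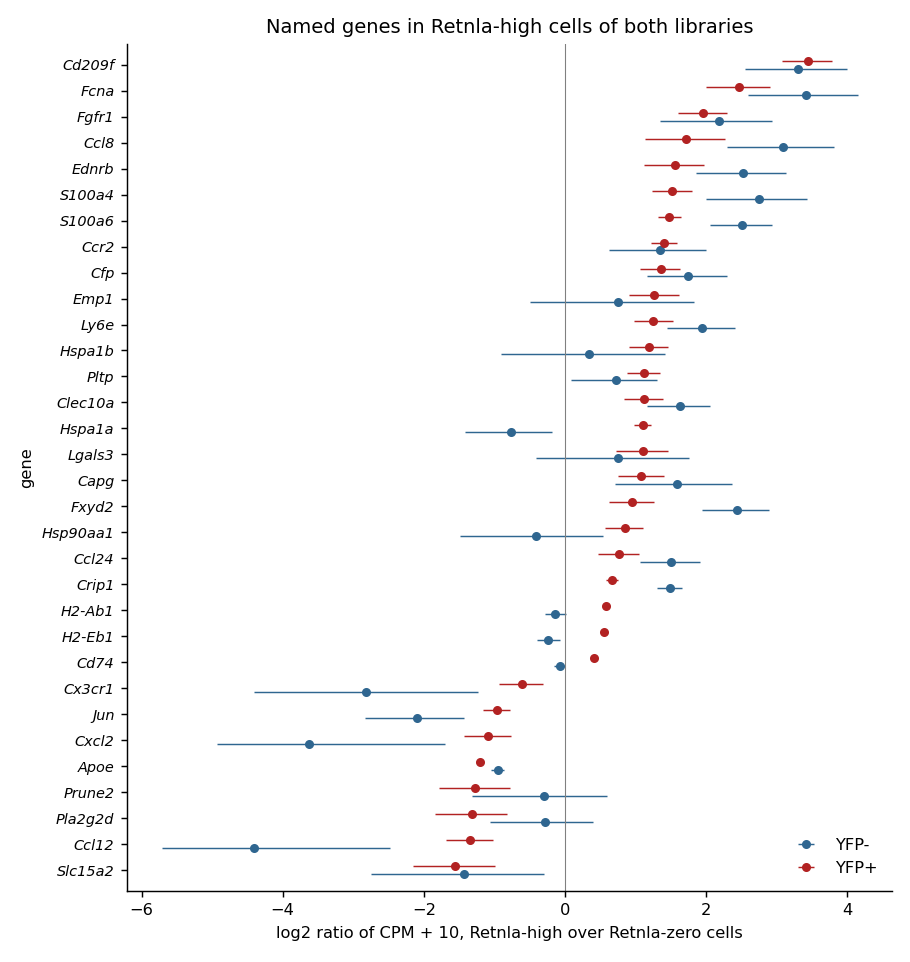
Log2 ratio of CPM + 10 in Retnla-high over Retnla-zero cells for named genes, in the YFP- (blue) and YFP+ (red) library, with 95% intervals for counting error. Cd209f (3.31 and 3.45) and Fcna (3.42 and 2.47) lie farthest to the right, and Hspa1a and H2-Eb1 lie on opposite sides of 0 in the libraries.

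Gene lists were read over members with at least 20 CPM, for which 0.496% of 5439 genes were at least 2-fold higher and 1.49% lower in *Retnla*-high YFP+ cells, and 6.1% of 5607 higher and 15.5% lower in YFP- cells. Above 0 were 43.4% of these genes in YFP+ and 46.8% in YFP- cells. Of the receptors and kinases for IL-4 and IL-13, 4 of 6 reached that level in both libraries, and 0 of 4 passed 2-fold in either, with medians of -0.05 (YFP+) and 0.42 (YFP-). *Il13ra1*, a chain of the IL-13 receptor, was at -0.42 (-1.02 to 0.15) in YFP+ and 0.23 (-1.11 to 1.38) in YFP- cells. *Jak1*, a kinase bound to these receptors, was at -0.13 (-0.59 to 0.30) and 0.75 (-0.15 to 1.55). Of the transcription factors, 0 of 6 passed 2-fold in YFP+ cells. There *Egr2* was at -0.77 and *Kdm6b*, a histone demethylase, at -0.86. In YFP- cells 1 of 7 was higher, *Klf4* (1.07, 0.46 to 1.63), and 2 were lower. These were *Egr2* (-2.22, -2.22 to 0.56) and *Kdm6b* (-1.87, -1.87 to 0.92), which had 0 UMIs in the *Retnla*-high cells. Both intervals reach above 0, so these 2 calls rest on too few UMIs to give a direction.

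Of 20 targets of the pathway, 7 reached 20 CPM, and 1 was at least 2-fold higher in YFP+ and 2 in YFP- cells. Above 0 were 5 of 7 in YFP+ (median 0.29) and 6 of 7 in YFP- cells (median 0.43). *Msr1* was below 0 in both, at -0.64 and -0.53, and *Mrc1* at -0.32 in YFP+ but 0.43 in YFP- cells. *Arg1* and *Chil3* had 0 UMIs in the *Retnla*-high cells of both libraries. In *Retnla*-zero cells they were as good as absent too, with 1 UMI of *Arg1* in YFP+ cells and 0 otherwise. *Clec10a*, a galactose-binding lectin, was at 1.12 (0.84 to 1.39) in YFP+ and 1.63 (1.17 to 2.06) in YFP- cells, and *Ccl24*, a chemokine for eosinophils, at 0.76 and 1.50. *Ear2*, under that level, had 10 UMIs in *Retnla*-high and 21 in *Retnla*-zero YFP+ cells (1.47, 0.76 to 2.10).

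The 12 markers other than *Retnla* of the *Retnla*-bearing cluster of the study, cluster 4, were chosen on these cells and are not independent evidence. They include *Clec10a* and *Ccl24*, named above as targets. All 12 were above 0 in YFP- and 11 in YFP+ cells, with 9 and 3 at least 2-fold higher and medians of 1.49 and 0.60. *Ednrb*, an endothelin receptor, was at 2.52 and 1.56 and *Ly6e* at 1.95 and 1.25.

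C-type lectins of the Cd209 (DC-SIGN) family, which bind sugars on microbes, held the largest log2 ratios of the listed genes in YFP+ cells. *Cd209f* had 80 UMIs in 215 *Retnla*-high and 66 in 3578 *Retnla*-zero YFP+ cells (log2 ratio 3.45, 3.08 to 3.79), and 19 and 47 in YFP- cells (3.31, with a lower bound of 2.55). *Cd209g* was at 2.87 and 2.80, *Cd209d* at 2.58 and 2.33, and *Fcna*, a ficolin of the lectin complement pathway, at 2.47 and 3.42. Over all YFP+ cells *Cd209g* (9.04 CPM), *Cd209d* (13.2 CPM) and *Fcna* (18.8 CPM) were under 20 CPM, so the counts over the list leave them out, and *Cd209f* (22.5 CPM) passed that level only through the *Retnla*-high cells, being at 11.1 CPM in *Retnla*-zero cells. *Cd209f* was the 1 of 11 measured members at least 2-fold higher in YFP+ cells, where the median was -0.15. In YFP- cells 4 of 12 were higher, with a median of 0.60, and among them *Fcna* likewise passed through the *Retnla*-high cells, being at 14.3 CPM in *Retnla*-zero cells. Among dendritic cell genes *Cd209a* was at 1.25 and 1.43, while *Flt3*, *Zbtb46* and *Xcr1* had at most 6 UMIs in *Retnla*-high cells.

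Of monocyte-related genes, 4 of 7 were at least 2-fold higher in each library, with medians of 1.11 (YFP+) and 1.01 (YFP-). All 7 were above 0 in YFP+ cells, and 6 in YFP- cells, where *Ms4a4c* was at least 2-fold lower (-1.83, -1.83 to 0.96) with 0 UMIs in *Retnla*-high cells. *S100a4* was at 1.52 and 2.75. MHC class II genes, which present antigen, went different ways. All 7 were above 0 in YFP+ cells (median 0.41) and none in YFP- cells (median -0.23). None passed 2-fold. *H2-Ab1* was at 0.58 (0.53 to 0.62) in YFP+ and -0.14 (-0.29 to 0.01) in YFP- cells. Among CC chemokines *Ccl8* was at 1.72 and 3.09 and *Ccl12* at -1.34 and -4.41, the latter with 1 UMI in *Retnla*-high YFP- cells. The list held 0 higher and 2 lower of 5 in YFP+ cells and 1 and 2 of 6 in YFP- cells. *Ccl8*, at 15.7 CPM over all YFP+ cells, was under 20 CPM there, so the YFP+ count leaves it out.

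The other lists of macrophage programmes are given with YFP+ cells first and YFP- cells second. Of 7 inflammatory cytokine genes in YFP+ cells 1 was at least 2-fold lower, *Cxcl2* (-1.09), and of 5 in YFP- cells 4 were. Among these 4, *Tnf* (-1.72, -1.72 to 1.07) had 0 UMIs in *Retnla*-high cells, too few to give a direction. Of microglia-related genes 1 of 7 and 3 of 6 were lower, with *Cx3cr1*, the fractalkine receptor, at -0.61 and -2.82. Of genes common to nerve macrophages 2 of 8 and 0 of 8 were lower, among them *Pla2g2d* (-1.32 and -0.29). Cell cycle genes were lower in 1 of 3 and 2 of 3. Of the 2 in YFP- cells, *Birc5* (-1.74, -1.74 to 1.05) likewise had 0 UMIs in *Retnla*-high cells. Of immediate early and heat shock genes, which also respond to tissue dissociation, 2 of 10 were at least 2-fold higher in YFP+ cells, *Hspa1b* (1.19) and *Hspa1a* (1.11), and 3 of 10 lower in YFP- cells, where *Jun* was at -2.10. The part of the response to dissociation was not tested. Of interferon genes 0 of 2 and 1 of 2 were higher. Macrophage and sort genes were within 2-fold in YFP+ cells, with *Fcgr1* (CD64) at 0.11, *Ptprc* (CD45) at 0.09, *Csf1r* at 0.12 and *Adgre1* at -0.05. In YFP- cells 1 of 11 was higher, *Itgam* (1.33, 0.37 to 2.17), and 1 lower, *Fcgr1* (-1.55, -3.14 to 0.04), with 2 UMIs in *Retnla*-high cells.

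Among the markers of other cell types reported here, mural markers together were at 5.51 CPM in *Retnla*-high and 144 CPM in *Retnla*-zero YFP+ cells, and fibroblast markers at 77.1 and 95.8 CPM. Endothelial markers were at 27.5 and 25.8 CPM (10 UMIs in the *Retnla*-high cells). The B cell gene *Cd79b* had 10 UMIs, neutrophil markers 2, T cell markers 2, and mast cell and eosinophil markers 0 in all *Retnla*-high YFP+ cells. In YFP- cells endothelial markers were at 62.8 CPM in *Retnla*-high (4 UMIs) and 26.4 CPM in *Retnla*-zero cells. In the *Retnla*-high YFP- cells *Cd79b* had 3 UMIs, fibroblast and neutrophil markers 1 each, and mural, T cell, mast cell and eosinophil markers 0.

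The genes that accompanied *Retnla* differed with its amount. In YFP+ cells *Ccr2* was at 261 CPM where *Retnla* was 0, 756 CPM (657 to 866) at 3 to 9 UMIs of 500 and 556 CPM (411 to 735) at 10 or more, and *H2-Ab1* at 8266, 13129 and 9907 CPM. *Clec10a* was at 142, 204 and 681 CPM (520 to 876) in the same classes, *Ly6e* at 130, 178 and 783 CPM, *Cd209f* at 11.1, 124 and 522 CPM, and *Fgfr1* at 46.3, 131 and 454 CPM. The 154 cells with moderate *Retnla* were thus the class with most *Ccr2* and *H2-Ab1*, the former with overlapping intervals. The 61 cells with most *Retnla* were the class with most *Clec10a*, *Ly6e*, *Cd209f* and *Fgfr1*. The monocyte-related genes *S100a6* and *S100a4* did not follow *Ccr2*. In the same YFP+ classes *S100a6* was at 328, 843 and 1214 CPM and *S100a4* at 104, 240 and 556 CPM. Both were also highest at 10 or more in YFP- cells, at 938 and 505 CPM, with intervals overlapping those at 3 to 9. In the 18 YFP- cells at 10 or more, *Ly6e* was at 1118 CPM (760 to 1588), *Cd209f* at 541 CPM (303 to 893) and *H2-Ab1* at 4763 CPM, below the 6554 CPM of cells at 0.

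**Figure D4:**
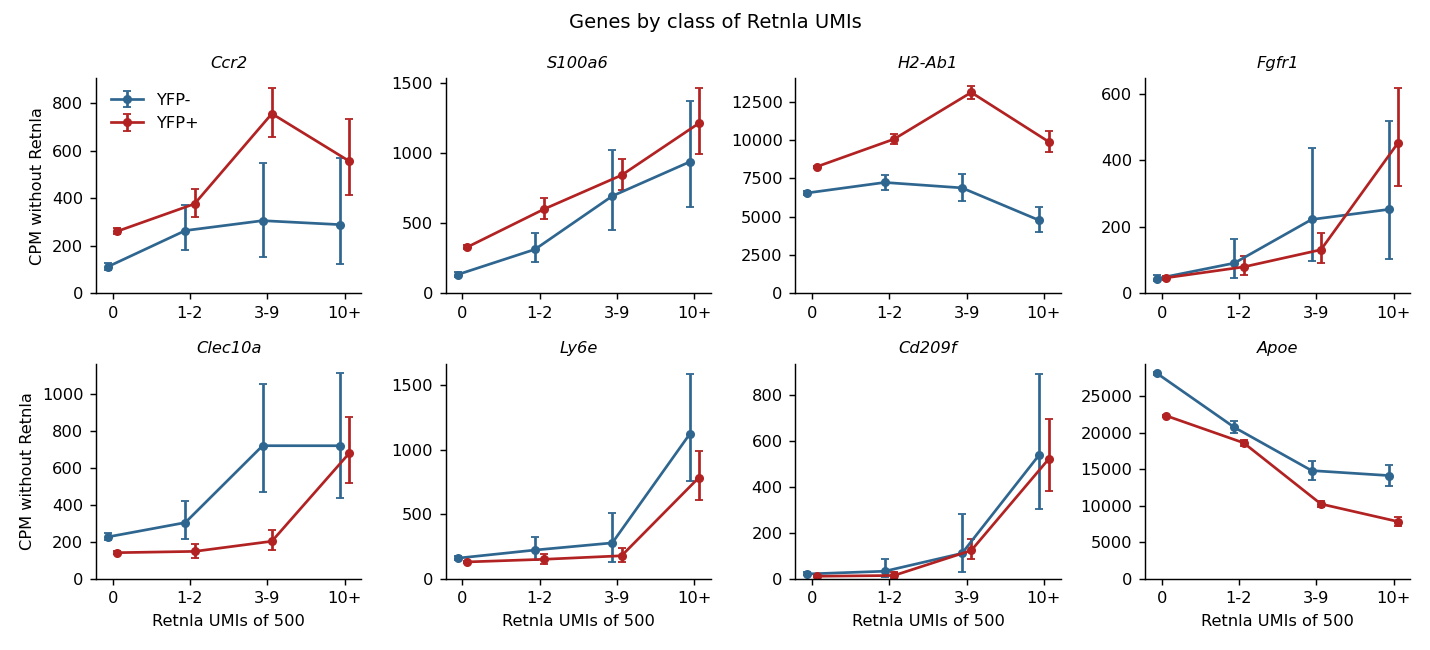
Level of 8 genes (CPM without Retnla, with 95% Poisson intervals) by the number of Retnla UMIs of 500 in the cell, in YFP- (blue; 952, 55, 20 and 18 cells) and YFP+ (red; 3578, 260, 154 and 61 cells). Ccr2 and H2-Ab1 are highest at 3 to 9 UMIs in YFP+ cells, and Ly6e and Cd209f at 10 or more in both libraries. S100a6 rises and Apoe falls from left to right.

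Seen from the other side, *Retnla* was read in the cells with most UMIs of each list, a range of a score holding at most 10% of all cells and not a cell type. It was highest, among ranges with at least 10 cells in both libraries, in the range of the cluster 4 markers, at 3176 CPM (2966 to 3397) in 124 YFP- cells and 3686 CPM (3530 to 3847) in 355 YFP+ cells, against 302 and 798 CPM in all other cells. These markers were chosen on these cells for a cluster that bears *Retnla*, so this is not independent evidence. The cluster 4 range held 68.4% (51.3 to 82.5) of the *Retnla*-high YFP- cells but 25.1% (19.5 to 31.5) of the YFP+ ones, beside 11.9% and 8.76% of all cells. In the monocyte-related range *Retnla* was at 1188 CPM (YFP-) and 2783 CPM (YFP+, 2650 to 2920), and in the MHC class II range at 1619 and 2421 CPM. The monocyte-related and MHC class II ranges held 10.5% and 5.3% of *Retnla*-high YFP- cells, beside 4.59% and 5.36% of all YFP- cells. Of *Retnla*-high YFP+ cells they held 20% and 25.1%, beside 8.46% and 10.1% of all YFP+ cells. In the YFP- MHC class II range 2 of 56 cells were *Retnla*-high, so its level rests on few cells.

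The ranges of alternative activation targets (1232 and 1862 CPM), Cd209 and scavenger genes (1276 and 1749 CPM) and CC chemokines (1713 and 1729 CPM) had intervals that overlapped within each library except for the CC chemokines of the YFP- library. They stood below the monocyte-related and MHC class II ranges in YFP+ cells. In YFP- cells all 3 were above the monocyte-related range, but only the CC chemokines with intervals that did not overlap. CC chemokines were also above MHC class II there, with overlapping intervals. Among ranges with at least 10 cells in both libraries, *Retnla* was lowest in the cell cycle range, at 35.5 CPM (2 UMIs in 13 cells) and 174 CPM. It was also low in the microglia-related range, at 224 and 470 CPM. In the range of inflammatory cytokines it was at 173 CPM if YFP- but 769 CPM if YFP+, and in that of immediate early and heat shock genes at 193 and 801 CPM. The range of the IL-4 and IL-13 receptors and kinases, of 12 and 43 cells, stood at 1070 and 451 CPM, on opposite sides of the other cells (613 and 1048 CPM). In each library only 1 of these cells was *Retnla*-high, and among the 12 YFP- cells no other had a *Retnla* UMI of 500. This contrast thus rests on very few cells. The remaining ranges that are reported here and filled in both libraries lay between 413 and 945 CPM.

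**Figure D5:**
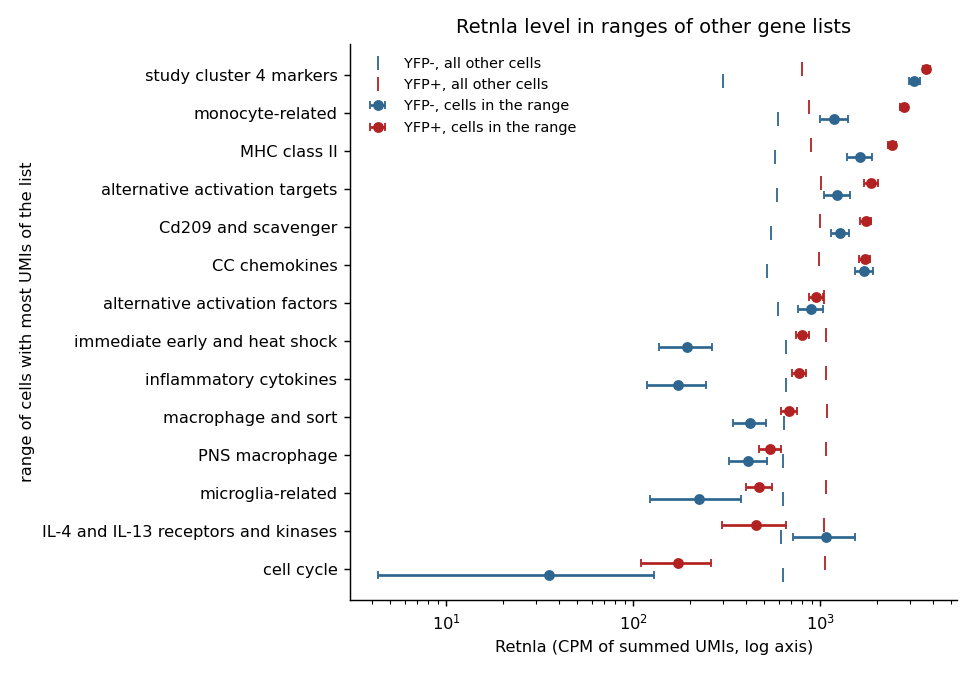
Retnla level (CPM of summed UMIs, log axis, with 95% Poisson intervals) in the cells with most UMIs of each gene list (points) and in all other cells of the same library (ticks), YFP- in blue and YFP+ in red. The ranges of cluster 4 markers, monocyte-related and MHC class II genes lie right of the other cells in both libraries, and the cell cycle range lies left of them. In the YFP- MHC class II range 2 of 56 cells were Retnla-high.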

How the data were processed

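The authors deposited raw UMI counts per gene and barcode for all barcodes of 2 libraries (10x Chromium v2), mapped to GRCm38 with no filter on cells; the submitters' processing notes name Cell Ranger 3.0.2 and Seurat 2.2.0, while the paper's methods name another Cell Ranger version, and the annotation release is not given in the sources used here. The paper's minimum of mapped reads per cell could not be applied to UMI counts, so cells were barcodes with at least 500 UMIs and 200 genes; doublets were kept. The members and lists were chosen with earlier results of these data known.

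Levels are summed UMIs as CPM, with exact 95% intervals of the Poisson distribution. Before log2 ratios were taken, 10 CPM was added to both sides; intervals of ratios (binomial) and of shares (Clopper-Pearson) cover counting error only. Cells were thinned to 500 UMIs (seed 0). *Retnla*-high is 3 or more of 500 UMIs and *Retnla*-zero is 0. A range is the cells with at least as many of 500 UMIs of a list as 10% or fewer of all cells reach (never under 2). Named are the 20 most and 10 least correlated genes of the YFP+ library, up to 4 genes of each list by size of the log2 ratio there, the resistin family and 4 sort markers. Scripts (Python 3.11.15, numpy 2.4.6, scipy 1.17.1, pandas 2.3.3, matplotlib 3.10.9) were tested on simulated counts. No test was made. 1 gene, and the list that holds it, are not reported here.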

Additional observations from a re-analysis of the deposited data

Results flagged for a closer look

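Among the list members and the genes named by likeness, 5 genes had log2 ratios of *Retnla*-high over *Retnla*-zero cells on opposite sides of 0 in the libraries, with counting intervals clear of 0. *H2-Eb1*, an MHC class II chain, was at -0.23 in the YFP- library (-0.40 to -0.07) and 0.55 in the YFP+ library (0.51 to 0.60). *Hspa1a*, an inducible heat shock protein, was at -0.77 (-1.42 to -0.18) and 1.11 (0.98 to 1.23). *H2-Aa*, another MHC class II chain, was at -0.23 (-0.39 to -0.08) and 0.40 (0.35 to 0.45). *Mrc1*, the mannose receptor, was at 0.43 (0.10 to 0.74) and -0.32 (-0.50 to -0.14), and *Gas6*, a ligand of TAM receptors, at 0.46 (0.02 to 0.87) and -0.49 (-0.77 to -0.22). The last 3 genes are named after their values were seen. With 1 library per group the difference was not tested.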

How the results depend on the processing

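No paired analysis was possible because each group is 1 library, and no replicate could be left out. Of 80 alternative values for 16 results, 50 stayed within the counting interval or within 1.5 times the count, 29 moved and 1 reversed. The reversal was the log2 ratio of YFP+ over YFP- cells, -0.18 in cells with under 2000 UMIs, beside 1.17 in cells with 2000 or more; both were chosen after seeing the data. It was 0.40 with equal weight per cell and 0.88 with 10% free RNA subtracted. The YFP- level was 570 CPM in cells of at least 1000 UMIs, 670 CPM without the 5% of cells with most UMIs, 813 CPM with equal weights and 520 CPM after subtraction; the YFP+ level was 1006, 1088, 1076 and 967 CPM. Shares with a *Retnla* UMI were 19.7% and 19.6% unthinned, and 7.15% in YFP- cells of at least 1000 UMIs. The background was 1387 (YFP-) and 1327 CPM (YFP+) in barcodes with 1 to 9 UMIs. Genes at least 2-fold higher and lower in *Retnla*-high cells numbered 342 and 871 (YFP-) and 27 and 81 (YFP+) from 20 CPM, and 17 and 25, and 4 and 6, from 200 CPM, where fewer genes were compared; 51 were higher in YFP- cells when *Retnla*-high began at 2 UMIs, 62 lower in YFP+ cells when it began at 5, and 54 lower there with a pseudocount of 1 CPM. The most like genes shared 3 by Spearman's correlation and 5 in cells of at least 1000 UMIs. The cause of these moves was not tested. In the 38 *Retnla*-high YFP- cells 3 UMIs correspond to 47.1 CPM, so lower levels rest on 1 or 2 UMIs there.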

Other observations

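Most *Retnla*-high cells lay outside the ranges of both the Cd209 and scavenger list and the monocyte-related list: 21 of 38 in the YFP- library (55.3%) and 152 of 215 in the YFP+ library (70.7%). Of all cells, 82.7% and 84.0% lay outside both, so *Retnla*-high cells fell within these ranges more often than cells at large. Few cells were in both ranges, 2 and 9, of which 0 and 3 were *Retnla*-high. In these cells *Retnla* was at 4968 CPM (2944 to 7852) and 10044 CPM (8438 to 11867). Cells in the first range only were at 1221 and 1498 CPM, and cells in the second only at 1064 and 2611 CPM. The levels of cells in both ranges thus rest on very few cells, and their intervals do not cover the spread between cells. Within the Cd209 and scavenger range *Retnla* was at 3414 CPM in 43 YFP- cells and 6049 CPM in 81 YFP+ cells that were also in the cluster 4 range, and at 296 and 321 CPM in the 92 and 234 cells that were not. The cluster 4 markers were chosen on these cells for a cluster that bears *Retnla*, so this is a description only. *Lyve1*, *Folr2* and *F13a1* are in both lists.

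A range of dendritic cell genes was filled by 11 YFP+ cells, of which 3 were *Retnla*-high. *Retnla* was at 5883 CPM there (4672 to 7312; 81 UMIs), beside 1033 CPM in the other YFP+ cells. In the YFP- library the range held 1 cell, with 0 *Retnla* UMIs. Of the 6 genes of the list only *Cd209a* reached 20 CPM, so the range is not read as dendritic cells. Its level rests on very few cells.

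*Cd209f* and *Clec10a*, which accompanied *Retnla* in cells, were also higher per UMI in the background than in cells, at log2 ratios of 0.88 and 0.61 in the YFP- and 0.92 and 0.59 in the YFP+ library, as were 18 and 14 of the 20 genes most like *Retnla*, beside 56.7% and 55.4% of the 2446 genes compared.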
